A study of Homo sapiens with 8 samples.

Results

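CXCL1, CXCL2, CXCL3, CXCL5 and CXCL8 are the neutrophil-attracting CXC chemokines followed here, 5 of the 19775 genes that the arrays name. They were taken by symbol: all 10 probe sets that carry exactly 1 of these symbols were used, out of 54675 in the deposited table. The 8 arrays come from A375, a human melanoma cell line with an activating BRAF mutation, grown with 10% serum and transfected with a nontargeting siRNA (siCont) or an siRNA against BRAF (siBRAF) or ATF4 (siATF4). Arrays of siCont, siBRAF and siATF4 cells in normal medium and of siCont and siBRAF cells in glutamine-free medium at 18 h form one set of 5. Arrays of siCont cells in DMSO, siCont cells in 10 uM vemurafenib, a BRAF inhibitor, and siATF4 cells in vemurafenib at 4 h form a set of 3. Every condition has 1 array, so no difference below has a replicate check or a p-value. All 8 samples are transfected cells of 1 line, and no untransfected sample is among them.

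These chemokines are small secreted proteins that bind CXCR2 on neutrophils, and CXCL8 also binds CXCR1. Their genes are known targets of NF-kB and AP-1, the factors that inflammatory signals and the RAF-MEK-ERK cascade switch on, and their messengers carry AU-rich elements that speed decay. In melanoma they are known both as leukocyte attractants and as growth factors for the tumour cells themselves.

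CXCL1, CXCL2, CXCL3 and CXCL8 lay above the array median on 6 of the 8 arrays, and CXCL5 lay below it on all 8. CXCL8, CXCL2 and CXCL3 were 3.23-fold, 2.86-fold and 2.13-fold higher without glutamine in siCont cells, and CXCL1 was 1.45-fold higher. In siBRAF cells the same 4 genes were lower without glutamine, CXCL8 by 1.93-fold. CXCL8 and CXCL1 were lower in vemurafenib than in DMSO, by 14.5-fold and 10.8-fold as measured. These sizes are uncertain because both genes lay below the median of the vemurafenib array, and with low values raised to that median they were 4.73-fold and 7.71-fold.

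The genes lie close together on chromosome 4, in the order CXCL8, CXCL6, PF4V1, CXCL1, PF4, PPBP, CXCL5, CXCL3, CXCL2 among protein-coding genes of GRCh38.p14. The stretches from 150 bases before to 10 bases after each annotated start are shown because all 5 hold the same NF-kB letters, GGAATTTCC, although only 4 of the genes were seen to vary. The sequences are RefSeq's for GRCh38.p14, written 5′ to 3′ on the strand of the gene. Capitals mark GGAATTTCC in each, and in CXCL8 also the AP-1 letters TGANTCA and the TATA letters TATAAA.

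CXCL1 (chr4:73869243-73869402, plus strand): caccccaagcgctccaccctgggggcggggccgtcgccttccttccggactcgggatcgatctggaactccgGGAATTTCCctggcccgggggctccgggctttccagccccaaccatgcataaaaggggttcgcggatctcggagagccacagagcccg
CXCL2 (chr4:74099186-74099345, minus strand): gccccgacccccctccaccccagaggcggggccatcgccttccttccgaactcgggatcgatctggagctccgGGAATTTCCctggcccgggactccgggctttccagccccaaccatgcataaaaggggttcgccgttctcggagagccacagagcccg
CXCL3 (chr4:74038680-74038839, minus strand): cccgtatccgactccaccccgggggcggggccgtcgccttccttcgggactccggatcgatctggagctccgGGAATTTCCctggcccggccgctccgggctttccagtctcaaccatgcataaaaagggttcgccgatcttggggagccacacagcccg
CXCL5 (chr4:73998668-73998827, minus strand): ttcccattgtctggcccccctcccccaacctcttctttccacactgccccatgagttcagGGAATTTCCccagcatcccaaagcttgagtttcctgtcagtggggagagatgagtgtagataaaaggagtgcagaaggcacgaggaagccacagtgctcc
CXCL8 (chr4:73740419-73740578, plus strand): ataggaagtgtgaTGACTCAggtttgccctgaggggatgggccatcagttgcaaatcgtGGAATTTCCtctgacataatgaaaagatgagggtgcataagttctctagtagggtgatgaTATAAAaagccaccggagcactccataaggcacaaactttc

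In the window of 300 bases, from 250 before to 50 after the start, GGAATTTCC was found on either strand in 129 of 27305 human promoters, or 0.472%, and in 5 of these 5. It began at position -78 in CXCL1 and CXCL3, at -77 in CXCL2, at -90 in CXCL5 and at -91 in CXCL8. TGANTCA was found in CXCL8 alone of the 5, at -137, against 7.76% of all promoters. TATAAA was also found only in CXCL8, at -31, against 12.0% of all promoters. TTGCNNAA, letters of C/EBP sites, was found in CXCL2 alone, from -188, against 10.6% of all. Only exact letters were counted, so near matches are missed and a gene without a match may still hold a similar site. The printed CXCL8 stretch holds ttgcaaat, near to TTGCNNAA. Near to TATAAA, those of CXCL1, CXCL2 and CXCL3 hold cataaaa and that of CXCL5 gataaaa. TGATGNAA, the letters of a C/EBP-ATF composite site of the kind ATF4 can bind, was in 0 of the 5 windows and in 3.67% of all. No motif in this search overlapped another in these genes. The windows of CXCL1 and CXCL3 were 82.5% identical in a global alignment, those of CXCL2 and CXCL3 73.7% and those of CXCL1 and CXCL2 69.8%, while CXCL8 was 43.0% to 44.2% identical to the others. These letters are a description of the windows and do not show that a factor was bound.

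**Figure D1:**
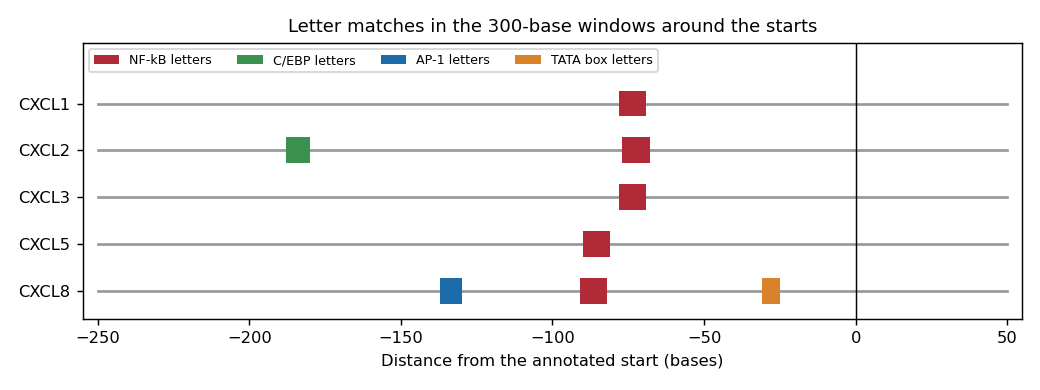
Motif letters found in the 300-base windows of the 5 genes, by distance from the annotated start in bases (x axis). Boxes mark exact matches on either strand, and near matches are not drawn. GGAATTTCC (NF-kB letters) stands between -91 and -69 in all 5 genes, and exact AP-1 and TATA box letters stand in CXCL8 only.

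Intensities are RMA values on a linear scale, with 14.8 to 15.5 as the array medians in the medium set and 36.4 to 36.9 in the DMSO and vemurafenib set. The sets differ in scale, so levels and differences were kept within a set. A level is relative to the other transcripts on its array, so fewer expressing cells and less RNA per cell cannot be told apart. Differences are of log2(intensity + 1), first condition minus second, and a gene entered a comparison if its higher value reached the median of its array. ATF4 was lower on both siATF4 arrays, at 534 against 1814 in normal medium and 757 against 4548 in vemurafenib; BRAF itself was not analysed here. Of 9 genes listed as melanocyte lineage or melanoma state markers 8 reached the array median on at least 1 array, among them SOX10 and MITF. The pigment cell gene PMEL read 12.5 to 20.0 in the medium set, near the medians, and lay below the median in the other set. The pigment cell antigen MLANA did not reach the array median on any of the 8. Of 10 leukocyte markers 3 reached it, on all 8 arrays (LYZ, CSF3R, CD3E), and PTPRC, the pan-leukocyte marker, read 2.66 to 3.44 in the medium set. The summed intensity of that list was 112 to 252 in the medium set and 419 to 525 in the other set.

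CXCL8, a strong neutrophil attractant that also acts on endothelial cells, read 1261 in siCont cells in normal medium, 4071 in siCont cells without glutamine, 514 in siBRAF cells in normal medium, 266 in siBRAF cells without glutamine and 1064 in siATF4 cells in normal medium. In the other set it read 178 in DMSO, 12.3 in vemurafenib and 11.9 with siATF4 in vemurafenib. The siCont glutamine-free array was thus the highest of the 5 and the siBRAF glutamine-free array the lowest, and both vemurafenib arrays were far below DMSO.

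CXCL1, first described as a growth-stimulating activity of melanoma cells, read 1036 in siCont cells in normal medium, 1503 without glutamine, 456 with siBRAF in normal medium, 260 with siBRAF without glutamine and 634 with siATF4. It read 291 in DMSO, 27.0 in vemurafenib and 32.2 with siATF4 in vemurafenib. The order of the siCont and siBRAF arrays was that of CXCL8.

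CXCL2, a close relative of CXCL1, read 186 in siCont cells in normal medium, 531 without glutamine, 116 with siBRAF in normal medium, 67.0 with siBRAF without glutamine and 121 with siATF4. It read 44.2 in DMSO, 23.7 in vemurafenib and 16.4 with siATF4 in vemurafenib. CXCL2 on the DMSO array lay just above that array's median of 36.4.

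CXCL3, the third of these close relatives, read 116 in siCont cells in normal medium, 247 without glutamine, 74.9 with siBRAF in normal medium, 48.0 with siBRAF without glutamine and 82.0 with siATF4. It read 44.6 in DMSO, 29.3 in vemurafenib and 21.8 with siATF4 in vemurafenib. In the medium set CXCL1, CXCL2, CXCL3 and CXCL8 had the same first and second array, siCont without glutamine and siCont in normal medium, and the same lowest array, siBRAF without glutamine.

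CXCL5, which binds CXCR2 like the others, read 2.53 to 3.60 in the medium set and 5.49 to 6.19 in the other, and none of its 3 probe sets reached the median on any of the 8 arrays. Its probe set with the highest mean stood between the 2.77th and 13.5th percentile of its arrays. CXCL5 therefore entered no comparison, and its differences of 0.38 or less in size are printed only in the plots.

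**Figure D2:**
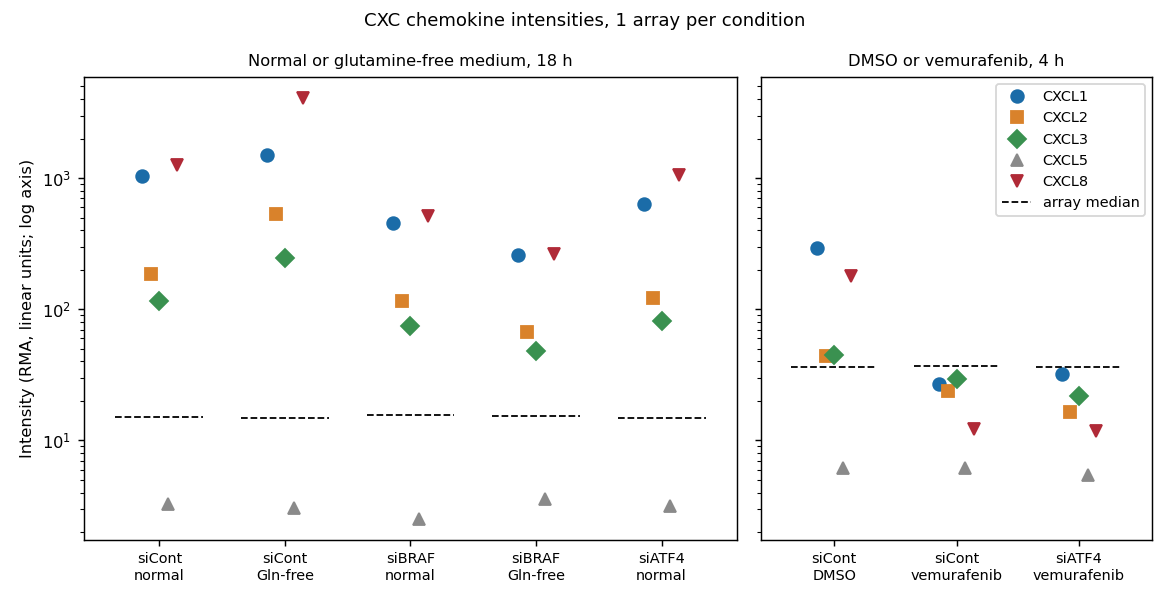
Intensity (y axis, log scale) of the 5 chemokines on the 8 arrays (x axis), 1 point per gene and array, with the array median as a dashed line. CXCL8 runs from 266 to 4071 in the medium set and from 178 to 11.9 in the other set, while CXCL5 lies below the median on each array.

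Glutamine withdrawal in siCont cells was the condition with the highest levels. CXCL8 differed by 1.69 between glutamine-free and normal medium, CXCL2 by 1.51 and CXCL3 by 1.08. The CXCL2 value rests on 1 of its 3 probe sets, and the mean of all 3 gave 0.37. CXCL1 differed by 0.54, less than 2-fold. Thus 3 of the 5 members passed 2-fold upward and 0 downward, where 5.76% of 13355 genes were higher and 7.22% lower by as much. Counted from the highest difference, CXCL8 ranked 230th, CXCL2 306th, CXCL3 665th and CXCL1 1958th of the 13355. For actin, the log2 intensity of the 3' probes minus that of the 5' probes, which reflects RNA integrity, was 0.28 here and 0.16 to 0.20 on the other 4 arrays of the set. Its part in the result was not tested.

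In siBRAF cells glutamine withdrawal went with lower chemokine levels. The difference between glutamine-free and normal medium was -0.95 for CXCL8, -0.81 for CXCL1, -0.78 for CXCL2 and -0.63 for CXCL3. None of the 5 reached 2-fold, and few genes did: of 13138 genes, 0.0761% were lower and 0.0457% higher by that much, with an SD over genes of 0.19. Among those 13138 genes CXCL8 ranked 14th from the lowest difference, CXCL1 33rd, CXCL2 38th and CXCL3 78th. The glutamine responses of siCont and siBRAF cells, which share no array, thus had opposite signs for 4 of 5 members. Opposite signs alone were common: of 698 genes at least 2-fold higher without glutamine in siCont cells, 298 were below 0 in siBRAF cells.

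The siBRAF response minus the siCont response was -2.64 for CXCL8, -2.30 for CXCL2, -1.71 for CXCL3 and -1.35 for CXCL1. By this difference they ranked 62nd, 93rd, 226th and 412th from the lowest of 13713 genes. Over the 12780 genes compared in both pairs, 698 were at least 2-fold higher without glutamine in siCont cells, and their median difference in siBRAF cells was 0.03. Of these 698 genes, 12 were at -0.5 or lower in siBRAF cells, a bound chosen after the values were seen. CXCL8, CXCL2 and CXCL3 were 3 of the 12, and the others were BCL2A1, BIK, CHAC1, EGR3, GOLT1A, KRT7, PLK3, PTX3 and VEPH1. BCL2A1 is a known NF-kB target that protects from apoptosis, and PTX3 encodes a secreted pattern recognition protein. The difference between responses rests on 4 single arrays and was not tested.

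**Figure D3:**
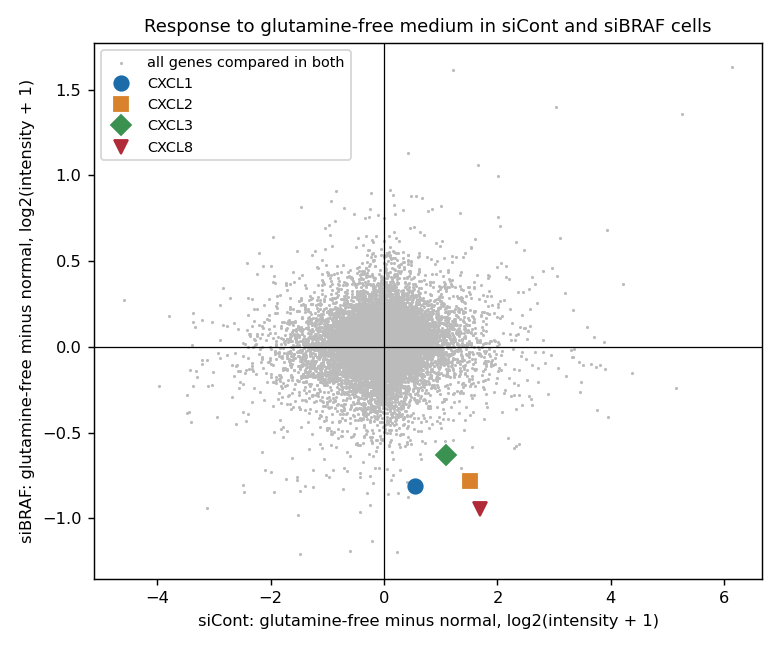
Difference of log2(intensity + 1) between glutamine-free and normal medium in siCont cells (x axis) and in siBRAF cells (y axis) for the 12780 genes compared in both (grey) and 4 chemokines. CXCL1, CXCL2, CXCL3 and CXCL8 lie at 0.54 to 1.69 on the x axis and at -0.95 to -0.63 on the y axis; CXCL5 was not compared.

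BRAF knockdown went with lower levels in both media, and the differences were larger without glutamine. In normal medium siBRAF minus siCont was -1.29 for CXCL8, 2.45-fold lower, and -1.18 for CXCL1, 2.27-fold lower. CXCL2 stood at -0.67 and CXCL3 at -0.62, short of 2-fold. So 2 of 5 members were at least 2-fold lower in normal medium and 0 higher, beside 7.61% lower and 7.16% higher of 13346 genes.

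In glutamine-free medium siBRAF minus siCont was -3.93 for CXCL8, 15.3-fold lower, and -2.97 for CXCL2, 7.92-fold lower. CXCL1 stood at -2.53, 5.79-fold lower, and CXCL3 at -2.34, 5.14-fold lower. Of the 5 members 4 were at least 2-fold lower and 0 higher, beside 10.8% lower and 12.8% higher of 13496 genes. CXCL8 ranked 29th from the lowest and CXCL3, with the smallest difference of the 4, 215th. All 4 still lay above the array median on both siBRAF arrays. The summed leukocyte markers were lower with siBRAF too, at 123 against 215 in normal medium and 112 against 170 without glutamine, and LYZ made most of that difference, at 35.4 against 124 and 30.1 against 85.0. The part of these markers in the result was not tested.

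ATF4 knockdown in normal medium went with smaller differences of the same sign. CXCL1 stood at -0.71, CXCL2 at -0.61, CXCL3 at -0.49 and CXCL8 at -0.25 against siCont. No member reached 2-fold, beside 0.387% of 13170 genes lower and 0.471% higher by as much. CXCL1 ranked 120th from the lowest and CXCL8 only 1588th, so the order within the group was not that seen with siBRAF, where CXCL8 had the most negative value. The other probe set of CXCL8 stood at -0.49 here, so the rank of CXCL8 depends on the probe set taken. The siATF4 and siBRAF comparisons in normal medium use the same siCont array, so the sign they share is not independent evidence.

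Vemurafenib for 4 h in siCont cells went with much lower CXCL8 and CXCL1. As measured, CXCL8 differed by -3.75 from DMSO and CXCL1 by -3.38 in a comparison of 13160 genes. CXCL2 stood at -0.87 and CXCL3 at -0.59. Of the 5 members 2 were at least 2-fold lower and 0 higher, beside 1.92% lower and 0.859% higher of all genes. All 4 lay below the array median in vemurafenib and entered the comparison only through their DMSO values, so these sizes are uncertain and the counts are no support for a change. With values below the median raised to it, CXCL1 was 7.71-fold and CXCL8 4.73-fold lower, so their order turned, and CXCL2 and CXCL3 were 1.19-fold and 1.20-fold lower.

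The effect of ATF4 knockdown in vemurafenib was not readable for these genes. All 5 members lay below the array median on both vemurafenib arrays and none entered the comparison, in which, of 13173 genes, 0.729% were lower and 0.205% higher by 2-fold or more. CXCL1 read 32.2 with siATF4 against 27.0 with siCont, and CXCL8 11.9 against 12.3. Against the DMSO array, siATF4 cells in vemurafenib stood at -3.80 for CXCL8, -3.14 for CXCL1, -1.38 for CXCL2, and CXCL3 was 2.05-fold lower. That made 4 of 5 members at least 2-fold lower and 0 higher, beside 2.82% lower and 1.91% higher of 13230 genes. With log2(intensity + 16), or with low values raised to the array median, this count was 2 of 5. This comparison shares its DMSO array with that of siCont cells, and the members' values in vemurafenib are again all below the median.

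**Figure D4:**
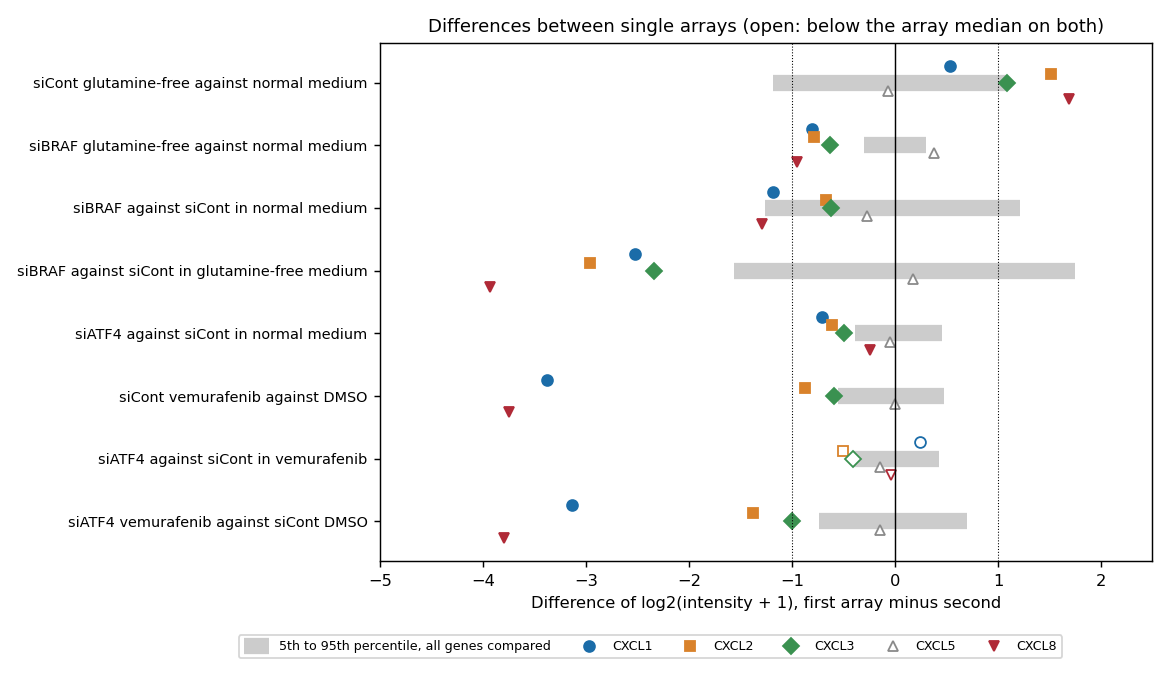
Difference of log2(intensity + 1) (x axis) for the 5 chemokines in 8 comparisons of single arrays (rows), with the 5th to 95th percentile of all genes compared as a grey bar. CXCL8 has the most positive member value, for glutamine-free against normal medium in siCont cells (1.69). It also has the most negative, for siBRAF against siCont in glutamine-free medium (-3.93). Open symbols lay below the array median on both arrays.

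Probe sets of a gene did not always read alike. The 2 of CXCL8 had the same sign in each comparison that CXCL8 entered, at 1.69 and 2.27 for glutamine withdrawal in siCont cells and at -3.93 and -5.01 for siBRAF without glutamine. They stood at -0.95 and -0.96 for glutamine withdrawal in siBRAF cells, and at -3.75 and -2.69 for vemurafenib. Both have names ending in x or s, which mark probes that may match several transcripts.

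For CXCL2 only the probe set with such a name reached the array median. Its other 2 probe sets read 2.94 to 8.09 and stayed below the median on all 8 arrays. One of these stood at -0.24 for glutamine withdrawal in siCont cells, where the first gave 1.51. CXCL2 values above rest on the x-type probe set, which could also bind transcripts of its close relatives, so they are uncertain. CXCL1 and CXCL3 have 1 probe set each, with no such mark.

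Patterns over the 8 arrays were compared after subtracting each set's mean, as Pearson's r. All points are single arrays of 1 cell line that share conditions. The pool was the 598 genes that reached the array median on at least 1 array of each set and spanned at least 2-fold within each set, and 4 of the 5 members were in it. These 4 met the condition in the DMSO and vemurafenib set only through DMSO, so 2 of the 3 points of that set behind each r and rank lie below the array median. CXCL2 and CXCL3 had r = 0.998, and each was the gene most like the other among 597. The CXCL2 pattern rests on the x-type probe set, which could also bind transcripts of its close relatives. The part of such binding in this r was not tested. CXCL1 and CXCL8 had r = 0.978, and CXCL8 was the gene most like CXCL1, while CXCL1 was 4th for CXCL8. Across these pairs r was lower, from 0.796 for CXCL1 and CXCL3 to 0.884 for CXCL2 and CXCL8, with ranks of 72 to 141. CXCL1 and CXCL8 differed more between DMSO and vemurafenib than CXCL2 and CXCL3, which were near the array median in DMSO.

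The 10 genes most like the members' mean pattern were URB2 (r = 0.990), MAFF, ANKRD55, FOSL1, SINHCAF, PLAUR, EMP1, KLF2, EHD1 and NEDD4L (r = 0.965). FOSL1 is an AP-1 subunit, MAFF a small bZIP factor and PLAUR the receptor of urokinase. MAFF spanned more than the members, from 3.25 above to 2.12 below its medium set mean, while URB2 spanned 0.62 above to 0.44 below. The members' mean includes CXCL5, which was below the array median on all 8 arrays. It ran from 1.28 on the siCont glutamine-free array to -1.04 on the siBRAF glutamine-free array.

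**Figure D5:**
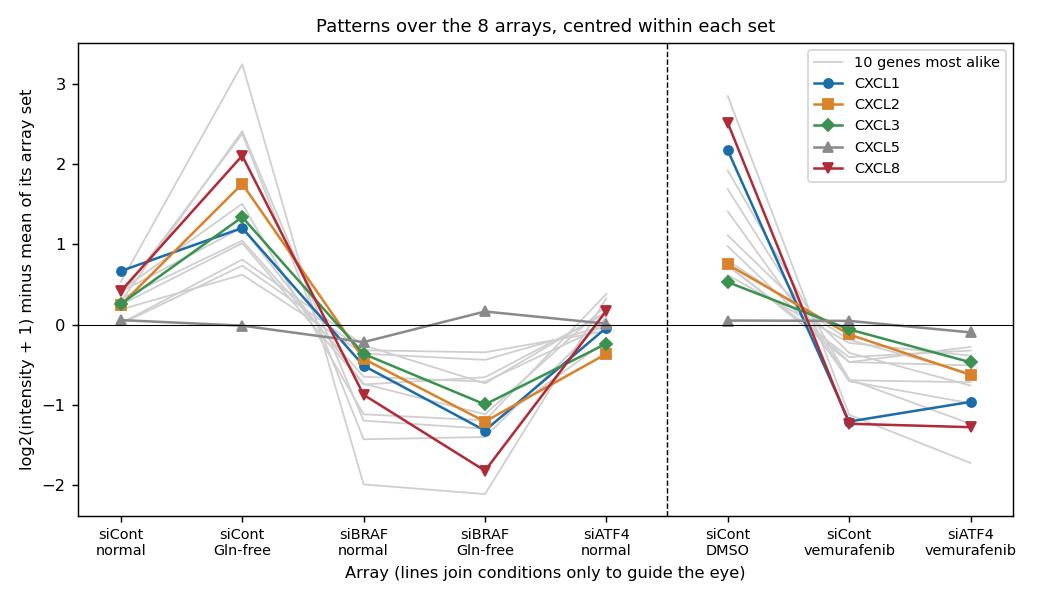
log2(intensity + 1) minus the mean of its array set (y axis) on the 8 arrays (x axis) for the 5 chemokines and, in grey, the 10 genes with the most similar pattern. CXCL8 runs from 2.11 to -1.82 in the medium set and from 2.52 to -1.28 in the other; CXCL5 stays within 0.22 of its set mean.

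Of 3 receptors of these ligands, only CXCR1 reached the array median, and it did so on all 8 arrays. CXCR2, the main receptor, read 3.02 to 3.79 in the medium set and 6.09 to 7.0 in the other, below the median on all 8 arrays. CXCR1 read 44.4 to 52.3 and 113 to 121 and ACKR1, a decoy receptor, stayed below the median, and no receptor was 2-fold apart in any of the 8 comparisons. The remaining chemokines of the same ELR type, CXCL6 and PPBP, read 2.46 to 2.73 and 3.07 to 3.17 in the medium set and were below the median on all 8 arrays, although both lie in the same gene cluster.

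CXC chemokines without the ELR motif, many of which attract lymphocytes, included members that were higher with BRAF knockdown. Of 8 such genes 4 were compared with siBRAF. In normal medium 2 of the 4 were at least 2-fold higher and 0 lower (median 1.23, against -0.01 over all genes), and without glutamine 3 were higher and 0 lower. Over all genes 7.16% were higher and 7.61% lower in normal medium, and 12.8% and 10.8% without glutamine. CXCL14 read 173 with siBRAF and 5.91 with siCont in normal medium, a difference of 4.65 from a level below the median. CXCL10 read 129 with siBRAF against 45.0 with siCont in normal medium, and 55.2 against 15.4 without glutamine. CXCL16 stood at 0.97 and 1.17. Without glutamine in siBRAF cells 2 of the 4 compared were at least 2-fold lower and 0 higher, CXCL14 at -1.26 and CXCL10 at -1.21. Over all genes 0.0761% were lower and 0.0457% higher by as much. Both falls were larger than that of CXCL8 in the same comparison, at -0.95. CXCL10 was also lower without glutamine in siCont cells, at -1.49.

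Among 9 CC and CX3C chemokines, CCL20, which attracts CCR6-bearing lymphocytes, had the same signs as CXCL8 in the comparisons it entered, although its values on the 2 siBRAF and 2 vemurafenib arrays were under the array median. It read 57.5 in siCont cells in normal medium, 137 without glutamine, 13.5 and 7.85 in siBRAF cells, 49.3 with siATF4, 41.7 in DMSO, 10.3 in vemurafenib and 10.0 with siATF4 in vemurafenib. CCL2, a monocyte attractant, was higher with siBRAF: it read 172 and 149 in siCont cells and 991 and 961 in siBRAF cells in the 2 media. Only 5 of the 9 were compared with siBRAF, and in normal medium 1 passed 2-fold upward and 2 downward, against 1 and 1 without glutamine. The shares over all genes were 7.16% and 7.61% in normal medium and 12.8% and 10.8% without glutamine.

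Among signals known to induce these chemokines is IL1A, a cytokine of the IL-1 family. It read 135 in siCont cells in normal medium, 656 without glutamine, 34.9 and 34.6 in siBRAF cells, 49.9 in DMSO and 22.4 in vemurafenib. TNF, IL17A and the IL-1 receptor IL1R1 stayed below the median on all 8 arrays. TLR4, a receptor upstream of NF-kB, stood at -1.90 and -1.54 with siBRAF in the 2 media and was lower in vemurafenib, where it read 22.1, below the array median, against 309 in DMSO. LY96 of the same list went the other way with siBRAF, at 3.31 and 3.28, from siCont levels below the array median. In the list of 12 inducers and receptors, 2 of the 8 compared were at least 2-fold higher without glutamine in siCont cells. With siBRAF in normal medium 3 of 9 were lower and 1 higher, and in vemurafenib 2 of 8 were lower. The last 2 are IL1A and TLR4, both below the array median in vemurafenib and compared only through their DMSO values. The list median was -0.29, -0.37 and -0.50 in these comparisons, against -0.05, -0.01 and 0.02 over all genes. Over all genes 5.76% were at least 2-fold higher without glutamine in siCont cells. With siBRAF in normal medium 7.61% were lower and 7.16% higher, and in vemurafenib 1.92% were lower.

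Among 13 NF-kB subunits, inhibitors and kinases, 4 exceeded 2-fold upward without glutamine in siCont cells and 0 downward, with a median of 0.97: TNFAIP3 (2.43), NFKBIE (1.85), NFKBIA (1.37) and RELB (1.32). The shares over all genes were 5.76% upward and 7.22% downward. TNFAIP3 and NFKBIA are feedback inhibitors that NF-kB itself induces. In siBRAF cells none of the 13 was 2-fold apart between media (median -0.04), where only 0.0457% of all genes were higher and 0.0761% lower by as much. With siBRAF 0 of 13 were lower in normal medium and 5 without glutamine, and in vemurafenib 1 was lower, TNFAIP3 at -1.51. The shares lower over all genes were 7.61%, 10.8% and 1.92% in these comparisons. In normal medium NFKB1 read 179 with siBRAF against 263 with siCont and RELA 123 against 142, while NFKBIA was higher, at 492 against 251. The list median in that comparison was -0.09.

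Of 11 AP-1, EGR1 and C/EBP genes, 8 exceeded 2-fold upward and 1 downward without glutamine in siCont cells (median 1.62), with EGR1 at 5.14, JUN at 3.64 and FOS at 2.88. Over all genes 5.76% were higher and 7.22% lower by as much. In siBRAF cells 0 of 11 were 2-fold apart between media (median -0.10), where only 0.0457% of all genes were higher and 0.0761% lower by as much. JUN read 243 in siCont cells in normal medium and 3049 without glutamine, and 3058 and 2858 in siBRAF cells, so it was high on the siBRAF arrays where the chemokines were low. FOSL1 stood at -1.80 with siBRAF in normal medium, -3.78 without glutamine and -2.61 in vemurafenib. CEBPB, a C/EBP factor at known chemokine promoters, stood at -1.23 and -2.80 with siBRAF in the 2 media but at 0.54 in vemurafenib. With siBRAF in normal medium 3 of the 11 were at least 2-fold higher and 2 lower (median 0.02), beside 7.16% and 7.61% of all genes. In vemurafenib 4 of 11 were lower and 0 higher, beside 1.92% and 0.859% of all genes. FOS and EGR1 among the 4 were compared only through their DMSO values.

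Genes of AU-rich messenger decay did not share 1 direction. Of 6, ZFP36, which promotes decay of such messengers, was at 1.73 without glutamine in siCont cells, while ZFP36L2 (-1.45), KHSRP (-1.16) and the stabilising factor ELAVL1 (-1.08) were lower. ZFP36L2 was also at -1.73 with siBRAF in normal medium and -1.77 in vemurafenib.

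Of 12 genes taken as ERK output, 9 were at least 2-fold lower with siBRAF in normal medium (median -1.59), 10 without glutamine (median -2.28) and 11 in vemurafenib (median -2.60), with 0 higher in each. Of those 11, DUSP6 was below the array median in vemurafenib. The shares at least 2-fold lower over all genes were 7.61%, 10.8% and 1.92% in these comparisons. Without glutamine in siCont cells 3 were higher and 1 lower (median 0.65), beside 5.76% and 7.22% of all genes. In siBRAF cells 0 were 2-fold apart between media (median -0.06), where only 0.0457% of all genes were higher and 0.0761% lower by as much.

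Of 5 growth factors and cytokines often induced together with these chemokines, 4 were at least 2-fold higher without glutamine in siCont cells, with IL24 at 5.25 and IL6 at 4.38, and 3 of 4 compared were lower in vemurafenib. Of these 3, LIF and IL24 lay below the array median in vemurafenib and were compared only through their DMSO values, while IL11 read 101 against 682. Over all genes 5.76% were at least 2-fold higher without glutamine in siCont cells and 1.92% lower in vemurafenib. CSF3, the neutrophil growth factor, was within 2-fold in each of the 8 comparisons. In siBRAF cells IL24 was at 1.36 without glutamine, while CXCL8 was at -0.95.

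Of 8 genes on the arrays that neighbour the cluster and are no chemokines, 4 reached the array median on at least 1 array, and MTHFD2L, the nearest on the CXCL2 side, read 110 in siCont cells in normal medium, 152 without glutamine, 55.2 and 55.7 in siBRAF cells, and 168 and 159 in DMSO and vemurafenib. None of the neighbours was 2-fold apart for glutamine withdrawal or vemurafenib, while MTHFD2L, like the chemokines, was lower with siBRAF, at -0.98 in normal medium and -1.43 without glutamine. BTC, an EGF family ligand, was higher with siBRAF in normal medium, at 20.4 against 8.89, a level below the array median. EREG read 6.27 to 7.21 in the medium set. Among the 64 other genes on the arrays whose promoter window holds GGAATTTCC, 41 were compared for glutamine withdrawal in siCont cells, of which 7.32% were at least 2-fold higher, and 41 for vemurafenib, of which 4.88% were at least 2-fold lower. The shares over all genes were 5.76% and 1.92%.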

How the data were processed

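Expression was read from 1 deposited table of intensities for 8 arrays of A375 cells. The authors made these intensities with RMA, per the submitters' processing notes; version and probe set definitions are not given in the sources used here. The labelling started from 5 ug of RNA, per the labels' protocols. The platform annotation gave 41091 probe sets 1 gene symbol, 1801 several and 11721 none; only the first kind was used.

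From the table, log2(intensity + 1) was computed in Python 3.11.15 (pandas 2.3.3), and where a gene had several probe sets the one with the largest 8-array mean was taken. Genes were compared where the higher of both values reached the median (50th percentile) of its array, and at least 2-fold apart was the bound for counts. With 1 array per condition no test was run. The number of arrays limits the precision. The difference and count steps were tested on simulated data. Promoter windows are RefSeq's, aligned with Biopython 1.88.

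The members, gene lists, motifs and bounds were chosen with earlier results of these data known. Named genes were the 5 members, the 10 genes most like their mean pattern and at most 5 genes per list and comparison among those 2-fold apart; other list genes were named after their values were seen. The alternatives were another added constant, other filters, other probe set rules and 2 normalizations within sets; raising low values to the array median was added after seeing the data.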

Additional observations from a re-analysis of the deposited data

Results flagged for a closer look

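CXCL1, CXCL2, CXCL3 and CXCL8 are singled out because their response to glutamine-free medium was positive on the siCont pair of arrays and negative on the siBRAF pair. The siBRAF response minus the siCont response was -1.35 for CXCL1, -2.30 for CXCL2, -1.71 for CXCL3 and -2.64 for CXCL8. Opposite signs alone were not particular to them: 298 of the 698 genes at least 2-fold higher in siCont cells were below 0 in siBRAF cells. Each response is a difference of 2 single arrays, and the difference between the responses was not tested.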

How the results depend on the processing

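Of 128 recomputed counts of members, 119 stayed within 1.5 times the reported count. Without probe sets shared between transcripts CXCL8 drops out, since both its probe sets are of that kind, and CXCL2 is read by a probe set below the array median. The count of members at least 2-fold higher without glutamine in siCont cells then became 1, and the counts lower became 1 with siBRAF in normal medium, 2 with siBRAF without glutamine, 1 with vemurafenib and 2 with siATF4 and vemurafenib against DMSO. CXCL2 changed sign there, to -0.24 for glutamine withdrawal in siCont cells, 0.33 for siBRAF without glutamine and 0.10 for the difference of the glutamine responses, and the members' median of that difference became -0.64. With quantile normalization 1 member, CXCL8, was 2-fold lower without glutamine in siBRAF cells. For siATF4 and vemurafenib against DMSO the count was 2 under a filter at the array's 75th percentile, under log2(intensity + 16) and with low values raised to the array median, the last chosen after seeing the data. The 19 member differences of at least 2-fold, those of the glutamine responses included, kept their sign under the other 7 settings. No paired analysis was possible because each condition has 1 array. Levels near the array median limit what can be read in the vemurafenib set.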
